A study of Mus musculus with 8 samples.

Results

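The genes described here are 9 regulators of growth and development that are published targets of the let-7 microRNAs or work beside them: Lin28b, Igf2bp1, Igf2bp2, Igf2bp3, Hmga1, Hmga2, Arid3a, Myc and Mycn. They were followed in mouse liver RNA, and every array probe whose gene name, current or older, was one of these 9 symbols was taken, which gave 20 of the 41174 probes on the array for these 9 of 27670 genes. The liver came from 4 groups of C57BL/6 mice, labelled female and 6 months old, on 8 one-colour Agilent arrays, 2 to a group. The first group (KO ENU) was Albumin-Cre;Dicer1loxP/loxP mice, in which an albumin promoter-driven Cre deletes Dicer1 in hepatocytes, given N-ethyl-N-nitrosourea (ENU), a mutagen that alkylates DNA, in 1 intraperitoneal dose of 120 mg/kg. The second group (WT ENU) was Dicer1loxP/loxP littermates without Cre given the same dose, and both ENU groups were measured 15 days later. The other groups (KO vehicle and WT vehicle) were the same 2 genotypes given dimethylsulfoxide in a volume of 2 ml/kg, with no day of sampling stated. All 4 groups thus carried the floxed Dicer1 alleles, the Cre acts only where the albumin promoter is active, and how many mice stand behind an RNA sample is not stated.

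The enzyme made from Dicer1 releases mature microRNAs from their hairpin precursors, and let-7 is a microRNA family that is scarce in embryos and abundant in adult tissues. Let-7 lowers the mRNAs of a group of growth regulators that are active in fetal tissue and return in many tumours, hence the name oncofetal, while the RNA-binding protein LIN28B blocks the maturation of let-7 and is itself a let-7 target. In adult liver most of these regulators are low, and several are known as markers of fetal liver or of hepatocellular carcinoma. The arrays measured mRNAs and not mature microRNAs, so let-7 itself has no value here. The mature let-7 sequences are shown because their seed, bases 2 to 8 from the 5′ end and printed in capitals, is what the family's targets pair with. The 10 sequences shown were taken from RefSeq on GRCm38.p6, at 12 loci on chromosomes 5, 9, 10, 13, 15, 16, 17 and X. That source holds 11 mature names with this seed, and entries on a chromosome outside this list were left out.
mmu-let-7a-5p: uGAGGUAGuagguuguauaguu
mmu-let-7b-5p: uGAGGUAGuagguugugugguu
mmu-let-7c-5p: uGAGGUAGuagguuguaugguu
mmu-let-7d-5p: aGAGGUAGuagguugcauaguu
mmu-let-7e-5p: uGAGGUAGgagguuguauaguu
mmu-let-7f-5p: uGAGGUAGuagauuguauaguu
mmu-let-7g-5p: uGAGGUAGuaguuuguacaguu
mmu-let-7i-5p: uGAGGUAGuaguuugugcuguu
mmu-let-7k: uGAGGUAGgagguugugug
mmu-miR-98-5p: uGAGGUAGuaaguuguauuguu
The sequences were picked by this seed from those named let-7 or miR-98, so all 10 carry it by choice, and 9 of them are 22 bases long. Outside the seed the other 22-base members differed from let-7a at 1 to 4 positions, with let-7i the most distant.

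Signals are given as log2 of the background-corrected signal over the array's 75th percentile, so that 0 is the level of a spot at that percentile. The 2 arrays of a group differed by about the noise between repeated spots, with a median standardised difference of 0.549 to 0.737 within groups, 12.1 to 29.2 between groups and 0.688 from noise alone, and were counted as 1 RNA sample. A difference between 2 groups therefore sets 1 RNA sample against 1 and has no test. The words rose and fell are kept for a limma fit with terms for genotype and treatment over the 4 RNA samples, at a Benjamini-Hochberg adjusted p under 0.05 over 27235 probes. That fit has 1 residual degree of freedom, which is the difference between the ENU responses of the genotypes, so any genotype-dependent response enters it as noise. All ENU arrays lay on 1 slide and all vehicle arrays on another, so ENU and slide cannot be told apart. On both slides KO arrays held the first positions and WT arrays the next, so genotype and position cannot be told apart either. Between 54.7% and 69.3% of spots on an array were well above background and none was saturated. The deleted gene, Dicer1, read 0.16 and 0.17 on the KO ENU arrays, 0.417 and 0.420 on WT ENU, 0.63 and 0.63 on KO vehicle and 1.17 and 1.08 on WT vehicle with its brighter probe, and its difference of -0.38 ± 0.196 (SE) did not pass (adjusted p = 0.208). The second Dicer1 probe, which spans a splice junction, was lower in KO by 2.85-fold after ENU and by 5.51-fold without it, and fell (-1.98 ± 0.298, adjusted p = 0.0182), as did the mean of both probes (-1.18, adjusted p = 0.0292). Whether either probe lies in the deleted exons is not given in the sources used here. The Y-linked genes Ddx3y, Eif2s3y, Kdm5d and Uty were well above background in every group although the mice are labelled female. Xist, the X-inactivation gene of the same check, was not well above background on both arrays of any group.

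Of the 9 genes, Igf2bp1, Igf2bp3, Arid3a and Myc were higher in the Dicer1 knockout livers under both treatments and rose, the first 3 by 3.22 to 3.38 log2 units and Myc by 1.62, with Igf2bp1 set against WT values at background. Hmga2 was higher in KO by 1.01 on vehicle and 0.44 after ENU but did not pass. Igf2bp2 and Mycn were higher in KO on vehicle and lower in KO after ENU, Hmga1 was high in all groups and differed between genotypes by 0.07 after ENU and 0.36 on vehicle, and Lin28b was not well above background on any array. Counted over all probes, 102 of the 160 readings of the set (20 probes on 8 arrays) were well above background. The filter asked for a probe well above background on both arrays of at least 1 group, and 15 of the 20 probes, from 8 of the 9 genes, passed it. Igf2bp1 passed only through the KO groups.

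**Figure D1:**
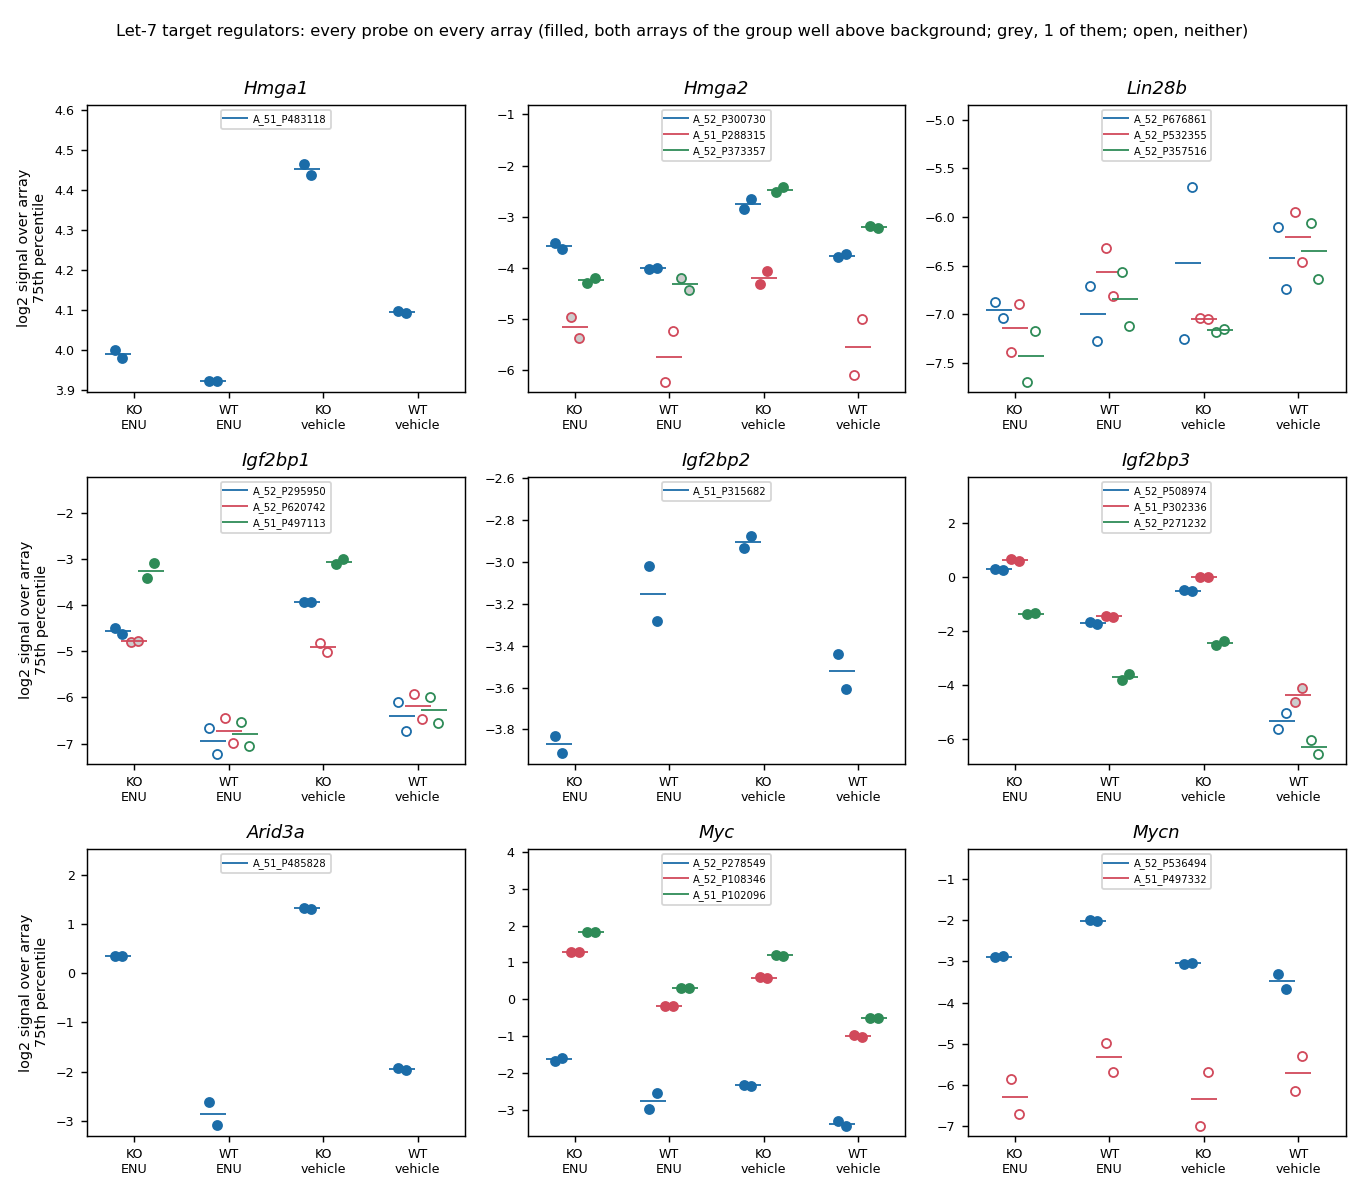
Each panel plots 1 gene, with log2 signal over the array's 75th percentile on the y axis (each panel has its own scale) and the 4 groups on the x axis; circles are single arrays, dashes are group means and colours are probes. Filled circles mark probes well above background on both arrays of the group, grey circles on 1 and open circles on neither; Igf2bp1 is open in both WT groups and Lin28b everywhere.

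Lin28b, the inhibitor of let-7 maturation, had 3 probes on chromosome 10 (mm7, minus strand, between 45189273 and 45267385). None of its 24 readings was well above background. Its values ran between -7.70 and -5.70, and on 9 of 12 readings in KO and 12 of 12 in WT the scanner program had replaced the signal by its own estimate of the smallest value it could report. No level, order or fold can be given for it, in KO or in WT livers. Its paralog Lin28a was below background as well.

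The IGF2BP proteins bind mRNAs in the cytoplasm and keep them from decay or translation, and all 3 are fetal genes. Igf2bp1 had its brightest probe, A_51_P497113, at chromosome 11, 96072251 to 96072310 (mm7, minus strand). It read -3.40 and -3.09 on the KO ENU arrays and -3.10 and -3.01 on the KO vehicle arrays, against -6.53 and -7.05 on WT ENU and -5.99 and -6.56 on WT vehicle. The KO arrays all lay above the WT arrays, and every WT value is one the program had substituted for a signal not above background. Igf2bp1 in KO thus exceeded WT at least 2.86-fold after ENU and at least 2.14-fold on vehicle, and the fit called it (3.38 ± 0.203 log2, SE; limma adjusted p = 0.0074). That effect rests on substituted WT values, and since the gene passed the filter only through KO, a higher level in KO was the only outcome open to it. With normexp, which models background from the raw signal, the effect was 0.77 (adjusted p = 0.0173), and the folds were 1.76 after ENU and 1.65 on vehicle, under the bounds above. A second probe, A_52_P295950, was at least 1.15-fold higher after ENU and at least 1.17-fold on vehicle, and its effect of 2.44 (adjusted p = 0.0082) was 0.18 with normexp, where it no longer passed (adjusted p = 0.335). The third probe, A_52_P620742, was above background on 1 KO ENU array only. Across the 3 probes, 9 of 12 readings in KO and 0 of 12 in WT were well above background.

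Igf2bp2, the member of the family most widely present in adult tissue, had 1 probe, A_51_P315682, at chromosome 16, 21710360 to 21710420 (mm7, minus strand). It read -3.83 and -3.91 on KO ENU, -3.02 and -3.28 on WT ENU, -2.93 and -2.87 on KO vehicle and -3.44 and -3.61 on WT vehicle. The order of the genotypes changed with treatment: KO was 1.65-fold lower after ENU and 1.53-fold higher on vehicle, with no overlap of the 2 arrays in either case. Averaged over treatments the KO effect was -0.05 ± 0.376 log2 (adjusted p = 0.925). With normexp the vehicle difference was -0.01 in place of 0.62, while the ENU difference between genotypes was -0.55 in place of -0.72.

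Igf2bp3, best known as a marker of fetal tissue and carcinomas, was higher in KO under both treatments and, among WT livers, higher after ENU. Its brightest probe, A_51_P302336, covers chromosome 6, 49047900 to 49048507 (mm7, minus strand), which is 608 bases for a 60-base probe and so crosses a splice junction. The probe read 0.64 and 0.60 on KO ENU, -1.43 and -1.49 on WT ENU, -0.0048 and -0.0055 on KO vehicle and -4.63 and -4.10 on WT vehicle. The 4 groups did not overlap, with KO ENU highest and WT vehicle lowest. Igf2bp3 in KO exceeded WT 4.24-fold after ENU and 20.6-fold on vehicle, and it rose (3.22 ± 0.586 log2; adjusted p = 0.0256). The folds were 3.43 and 5.64 with normexp, so the vehicle fold is the less certain one. In WT vehicle only 1 of the 2 arrays had this probe above background.

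The other Igf2bp3 probes gave the same order of groups. A_52_P508974, at 49045761 to 49045820, was higher in KO by 3.94-fold after ENU and by at least 12.5-fold on vehicle, with an effect of 3.40 (adjusted p = 0.0344). With normexp it was 3.06-fold and 4.43-fold, with an effect of 1.88. A_52_P271232, at 49067452 to 49067511, was 5.03-fold higher after ENU and at least 3.28-fold on vehicle, with an effect of 3.09 (adjusted p = 0.0152), and with normexp 2.43-fold and 2.04-fold, with an effect of 1.15. All 3 probes passed with normexp too. Neither was above background on a WT vehicle array, while both were on all WT ENU arrays.

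Hmga1 and Hmga2 encode small architectural proteins that bend AT-rich DNA in chromatin, and Hmga2 is the textbook let-7 target. Hmga1 (A_51_P483118, chromosome 17, 25749229 to 25749288, mm7, plus strand) was bright on every array, at 4.002 and 3.979 on KO ENU, 3.923 and 3.924 on WT ENU, 4.47 and 4.44 on KO vehicle and 4.10 and 4.09 on WT vehicle. KO lay above WT under both treatments, by 0.07 after ENU and 0.36 on vehicle. The KO effect was 0.21 ± 0.200 (adjusted p = 0.451), and centring arrays on the median in place of the 75th percentile turned the ENU difference to -0.12. With quantile normalization it was 0.56 after ENU and 0.87 on vehicle.

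Hmga2 had 3 probes on chromosome 10 (mm7, minus strand), all dim. The brightest, A_52_P300730, at 119755899 to 119755958, read -3.51 and -3.64 on KO ENU, -4.03 and -4.00 on WT ENU, -2.85 and -2.66 on KO vehicle and -3.79 and -3.74 on WT vehicle. KO was above WT on every array of the same treatment, 1.35-fold after ENU and 2.01-fold on vehicle. Its KO effect was 0.72 ± 0.234 (adjusted p = 0.0829), which was 0.03 with normexp and passed (adjusted p = 0.0468) when only probes above background on all 8 arrays were tested. The second probe, A_51_P288315, was above background on both KO vehicle arrays, on 1 KO ENU array and on no WT array. Its KO effect was 0.97 (adjusted p = 0.0601) and -0.16 with normexp, and it passed without 1 of the ENU arrays, at an adjusted p of 0.0392 without KO ENU array b and 0.0264 without WT ENU array b. The third probe, A_52_P373357, follows a cDNA, AK035164, at 119769076 to 119769135, away from the other 2. This probe was 3.43-fold lower after ENU in KO and 2.17-fold lower in WT, where 1 of the 2 ENU arrays was above background. With normexp these folds were 1.92 and 1.53.

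Arid3a, a DNA-binding protein of the ARID family that is active in fetal liver and in B cell development, had a single probe, A_51_P485828, at chromosome 10, 79734654 to 79734713 (mm7, plus strand). It read 0.36 and 0.35 on KO ENU, -2.63 and -3.08 on WT ENU, 1.33 and 1.32 on KO vehicle and -1.93 and -1.98 on WT vehicle. Arid3a was above background on all 8 arrays, and KO arrays stood over 2 log2 units above every WT array. The KO excess was 9.24-fold after ENU and 9.71-fold on vehicle, and the gene rose (3.24 ± 0.188 log2; adjusted p = 0.0073). With normexp the folds were 5.32 and 6.41, and the adjusted p stayed between 0.00139 and 0.0120 over the 14 alternatives tried with 4 RNA samples.

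Myc and Mycn are transcription factors that drive growth and ribosome production, with Myc in most dividing cells and Mycn in embryonic and neural tissue. Myc had 3 probes within chromosome 15, 62063665 to 62064316 (mm7, plus strand), above background on all 8 arrays. The brightest, A_51_P102096, read 1.84 and 1.83 on KO ENU, 0.30 and 0.31 on WT ENU, 1.204 and 1.182 on KO vehicle and -0.503 and -0.508 on WT vehicle. The groups did not overlap, in the order KO ENU, KO vehicle, WT ENU, WT vehicle. Myc in KO exceeded WT 2.89-fold after ENU and 3.24-fold on vehicle, and it rose (1.62 ± 0.192 log2; adjusted p = 0.0126). A_52_P108346 gave 2.74-fold and 3.01-fold (effect 1.52, adjusted p = 0.0136). A_52_P278549, the dimmest, gave 2.20-fold and 2.06-fold (effect 1.09, adjusted p = 0.0234), and with normexp 0.45 (adjusted p = 0.0768).

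Mycn had 1 usable probe, A_52_P536494, at chromosome 12, 12999078 to 12999137 (mm7, minus strand), since A_51_P497332 was not above background on any array. The usable probe read -2.90 and -2.87 on KO ENU, -1.9999 and -2.013 on WT ENU, -3.05 and -3.04 on KO vehicle and -3.31 and -3.66 on WT vehicle. WT ENU stood apart as the highest group. KO was 1.84-fold lower after ENU and 1.36-fold higher on vehicle, and averaged over treatments the effect was -0.22 ± 0.372 (adjusted p = 0.673). The vehicle difference was -0.01 with normexp in place of 0.44.

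**Figure D2:**
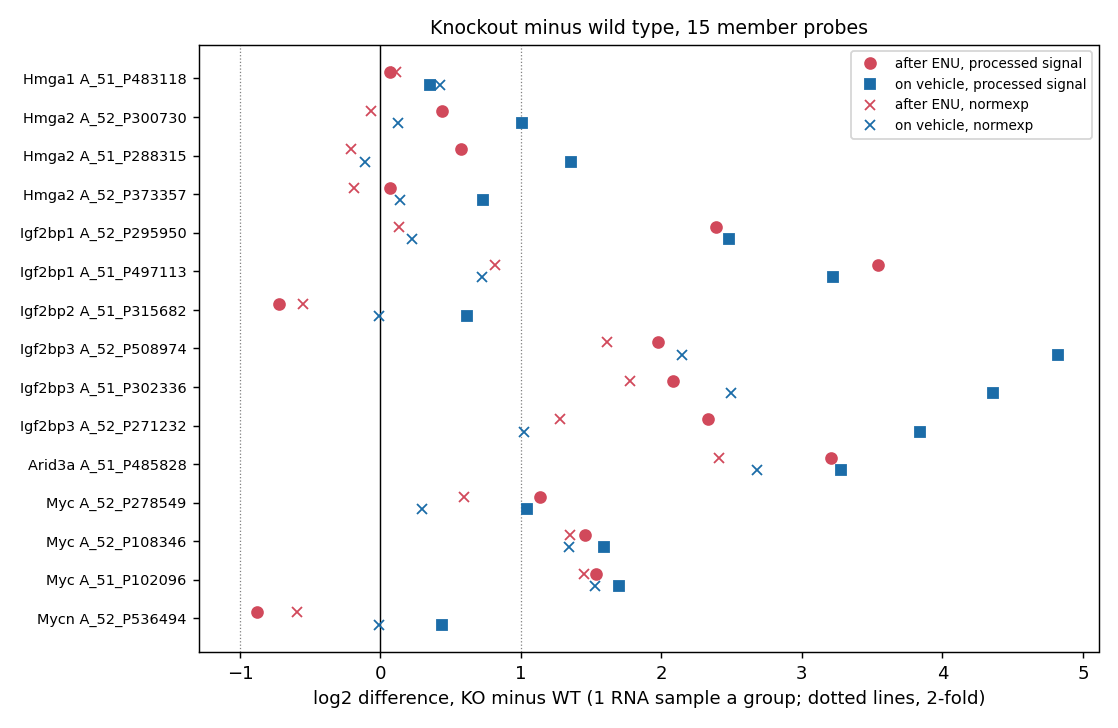
KO minus WT in log2 units (x axis) for the 15 probes that passed the filter (y axis), after ENU (red circles) and on vehicle (blue squares), each group being 1 RNA sample; crosses give the same difference with normexp background correction, and dotted lines mark 2-fold. Arid3a, the 2 brighter Myc probes and the 3 Igf2bp3 probes lie beyond 2-fold in all 4 readings. With normexp these and the Igf2bp1 and Hmga2 probes move toward 0. The exception is Hmga2 A_52_P373357 after ENU, which goes from 0.07 to -0.19.

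By gene, 4 of the 8 measured members rose in KO and 0 fell, where 17.1% of all 18137 measured genes rose and 15.4% fell. Without Igf2bp1, whose WT values were substituted, it was 3 of 7. At an unadjusted p under 0.05 limma counted 5 members higher in KO and 0 lower, where 22.6% and 26.1% of all genes were. The 8-array limma fit, whose residual is array noise and not spread between samples, counted 6 higher and 1 lower without the replicate block, where 36.5% and 48.4% of all genes were, and 6 and 0 with it, where 36.3% and 47.9% were. The median KO effect of the 8 was 1.17, against -0.12 for all measured genes. At 2-fold or more, 4 members were higher in KO after ENU, where 16.3% of all genes were, and 5 were higher on vehicle, where 17.3% were. No member was 2-fold lower in KO under either treatment (14.2% of all genes after ENU and 11.1% on vehicle), although Mycn reached -1.06 after ENU with median centring and -1.04 with quantile normalization. Members with a WT level at background (Igf2bp1, and Igf2bp3 on vehicle) could enter these counts only by being higher in KO.

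The ENU comparison asked whether the mutagen, 15 days on, left a mark on these regulators in either genotype. Over the 4 RNA samples 0 of the 8 members rose or fell with ENU by limma, where 0% of all genes did. At an unadjusted p under 0.05, 2 members were higher and 1 lower, where 10.7% and 11.8% of all genes were. The 8-array fit counted 3 higher and 4 lower both without the replicate block (32.9% and 40.8% of all genes) and with it (32.4% and 39.9%). The smallest adjusted p of a member was 0.141, for Arid3a, with an ENU effect of -0.94 ± 0.188.

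In WT livers Igf2bp3 and Mycn were at least 2-fold higher after ENU by their brightest probes, where 7.13% of all genes were. No member was 2-fold lower by its brightest probe (5.57% of all genes), but the dimmer Hmga2 probe A_52_P373357 was 2.17-fold lower. By its brightest probe, Igf2bp3 was 7.5-fold higher in WT ENU than in WT vehicle, where 1 of the 2 arrays was not above background, and higher by at least 5.45-fold with A_52_P508974 and at least 1.38-fold with A_52_P271232. With normexp these were 2.44-fold, 2.42-fold and 1.41-fold. Mycn was 2.78-fold higher in WT ENU, and 1.41-fold with normexp. In KO livers no member reached 2-fold in either direction by its brightest probe (4.32% of all genes higher and 5.47% lower), with 1.55-fold higher for Igf2bp3 and 1.12-fold higher for Mycn. Dimmer probes did, Igf2bp3 A_52_P271232 at 2.12-fold higher and Hmga2 A_52_P373357 at 3.43-fold lower. Myc was higher after ENU in both genotypes, 1.56-fold in KO and 1.75-fold in WT. Arid3a was lower after ENU in both, 1.96-fold in KO and 1.87-fold in WT. Arid3a and Igf2bp2 lay close to the 2-fold line: without array a of the group, Arid3a was over 2-fold lower in WT ENU and Igf2bp2 in KO ENU.

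**Figure D3:**
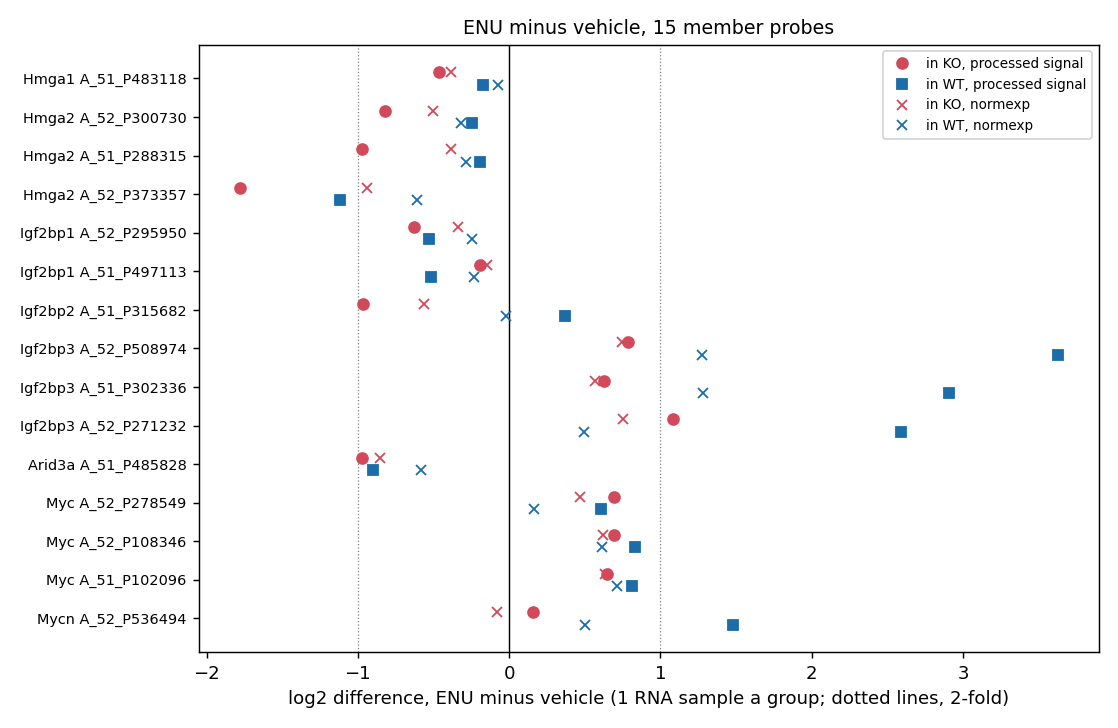
ENU minus vehicle in log2 units (x axis) for the 15 probes that passed the filter (y axis), in KO (red circles) and WT (blue squares), each group being 1 RNA sample; crosses give the values with normexp and dotted lines mark 2-fold. The 3 Igf2bp3 probes and Mycn have larger values in WT than in KO, except Igf2bp3 A_52_P271232 with normexp. Without normexp the 3 Myc probes sit at 0.60 to 0.83 in both genotypes. With normexp the dimmest, A_52_P278549, is at 0.47 in KO and 0.17 in WT.

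The ENU difference in KO was lower than that in WT by at least 2-fold for 3 of the 8 members, Igf2bp3 (by 2.28 log2), Igf2bp2 (by 1.34) and Mycn (by 1.32), where 6.45% of all genes were; no member was at least 2-fold higher (4.33%). With 1 RNA sample a group this contrast has no test. With normexp it counted 0 members, and for the Igf2bp3 probe A_52_P271232, which was substituted in WT vehicle, it turned to 0.26. Arid3a and Myc had nearly the same ENU difference in both genotypes, apart by 0.07 and 0.17 log2.

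The genes that control let-7 or carry out its work did not move as 1 group. Of 15 measured let-7 regulators 4 rose and 1 fell, where 17.1% and 15.4% of all genes did. Their median difference was 0.06 after ENU and -0.12 on vehicle. Hnrnpa1, which holds back let-7a processing, rose by 1.45, Ago2, the slicing Argonaute, by 1.09, Tut4, a uridyl transferase that acts on let-7 precursors with LIN28, by 1.01, and Drosha, the nuclear microRNA nuclease, by 0.94. Khsrp, which promotes let-7 maturation, fell by 0.80 with its brightest probe, a call lost under several alternatives, with a highest adjusted p of 0.579. The other Khsrp probe was higher in KO, by 0.41 after ENU and 0.19 on vehicle, and the mean of both was -0.25 (limma adjusted p = 0.332). With the mean over all of its probes, neither Hnrnpa1 (0.68, adjusted p = 0.0560) nor Ago2 (0.93, adjusted p = 0.0556) passed. Tut7 was at -0.29 (adjusted p = 0.324) and Dis3l2, which degrades let-7 precursors tailed by LIN28, at -0.30 (adjusted p = 0.285). Dgcr8, Xpo5, Tarbp2, Trim25, Ago1, Ago3 and Ago4 lay between -0.59 and 0.24 and did not pass.

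Among 21 measured genes reported elsewhere as let-7 targets, 11 rose and 1 fell, where 17.1% and 15.4% of all genes did. Their median differences were 0.74 after ENU and 0.84 on vehicle, against -0.10 and -0.14 over all genes. Of the 22 on the array, 3 were dim on both WT ENU arrays and 4 on both WT vehicle arrays, against 1 in each KO group. A gene dim in both WT groups could be called only by being higher in KO. Aurkb, a mitotic kinase, rose by 3.28 ± 0.217 (adjusted p = 0.0076). Its KO excess was at least 7.92-fold after ENU and at least 2.95-fold on vehicle. With normexp the effect was 1.14 and the folds were 2.61 and 1.86. Aurkb was dim in both WT groups, so a higher level in KO was the only outcome open to it. Ccnd1, cyclin D1, rose by 2.86 ± 0.282 (adjusted p = 0.0101), at 5.37-fold and 9.77-fold. Thbs1, thrombospondin, rose by 2.56 (adjusted p = 0.0080), which was 0.28 with normexp and no longer passed (adjusted p = 0.212). Cdc25a, a cell cycle phosphatase, rose by 1.76 ± 0.205 (adjusted p = 0.0122). Among the others, Igf1r, the receptor for insulin-like growth factors, rose by 1.55 (adjusted p = 0.0390), and the ubiquitin-conjugating enzyme gene Cdc34 fell by 0.79 (adjusted p = 0.0451). Igf1r and Cdc34 were picked for mention after their values were seen.

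The close relatives of the members did not rise. Mycl, the third MYC gene, was at -0.83 ± 0.210 (adjusted p = 0.0501), just outside the threshold, and passed it under 6 of the alternatives with 4 RNA samples. Arid3b was at 0.03 (adjusted p = 0.928). Around Myc, 2 of 11 measured network partners rose and 2 fell, where 17.1% and 15.4% of all genes did. Mxd3 and Mxd1, repressors that compete with MYC for MAX, rose by 3.02 and 1.08, and Mlxipl, the carbohydrate-responsive factor ChREBP, and Mxi1 fell by 1.28 and 0.84. Mxd3 was at 0.90 with normexp (adjusted p = 0.0549), Mxd1 at 0.55 with all probes averaged (adjusted p = 0.193), Mlxipl at -0.67 with quantile normalization (adjusted p = 0.0682), and Mxi1 missed the threshold with no filter on dim probes (adjusted p = 0.0571). Of 18 measured genes reported as MYC-induced, 1 rose and 1 fell, against the same shares of all genes. Cdk4 rose by 0.78 (adjusted p = 0.0463) and Hspd1 fell by 0.81 (adjusted p = 0.0424). Both calls were lost under some alternatives, with a highest adjusted p of 0.0781 for Cdk4 and 0.902 for Hspd1. The median difference of these 18 genes was -0.18 after ENU and -0.26 on vehicle, near that of all genes, and the nucleolar genes Ncl, Npm1, Nop56, Nop58 and Fbl lay between -0.14 and 0.46 without passing; these 5 were picked after their values were seen.

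Among 5 mRNAs reported as bound by IGF2BP proteins, 3 rose, where 17.1% of all genes did. H19, an imprinted long RNA, rose by 7.62 ± 0.212 and Igf2, the fetal growth factor the family is named for, by 7.28 ± 0.245 (adjusted p = 0.0065 each), and Cd44 by 1.72 ± 0.204 (adjusted p = 0.0126). Actb (0.22) and Btrc (0.31) did not pass. All 5 fetal liver genes rose, among them Dlk1 by 8.37 and Gpc3 by 5.90. With the members as with these lists, the genes were chosen with earlier results of the same samples known, so the counts are no independent evidence of a direction.

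**Figure D4:**
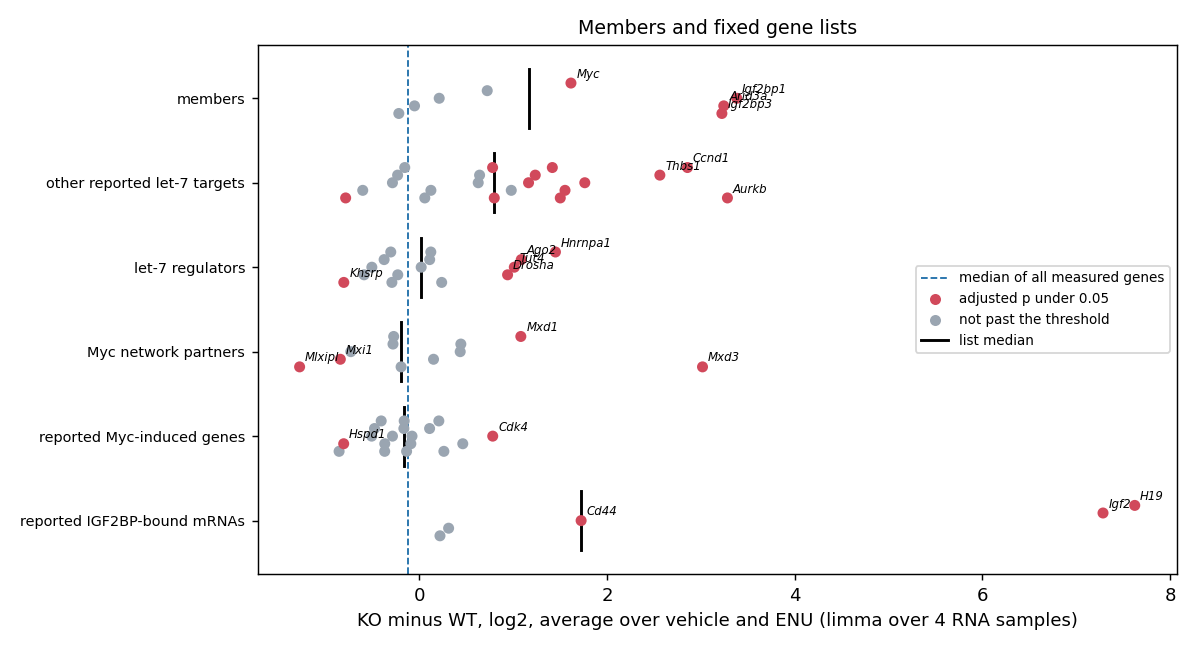
KO minus WT averaged over vehicle and ENU, in log2 units from limma over the 4 RNA samples (x axis), for the measured genes of 6 lists (y axis); red points passed an adjusted p under 0.05, grey points did not, black bars are list medians and the dashed line is the median of all measured genes, at -0.12. The MYC-induced genes centre near that line, with a median of -0.16. The medians of the members (1.17) and of the other let-7 targets (0.80) lie to its right, though single genes of both lists, such as Mycn (-0.22) and Cdc34 (-0.79), lie to its left.

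Markers of other liver cell types differed between the genotypes alongside the members, and in a bulk sample fewer cells of a type and less RNA per cell cannot be told apart. The liver label fits the markers: all 9 measured hepatocyte genes were above background in every group. Of these, 6 fell, where 15.4% of all genes did. The summed linear level of the 9 was 971 to 995 in KO ENU, 1648 to 1717 in WT ENU, 949 to 1003 in KO vehicle and 1966 to 1975 in WT vehicle. All 8 proliferation markers rose, where 17.1% of all genes did. On both WT vehicle arrays 3 of the 8 were dim, against 0 in each other group, so their vehicle difference could only be higher in KO. The sums of the 8 proliferation markers were 28.8 to 29.2 in KO ENU, 3.996 to 4.014 in WT ENU, 16.8 to 16.9 in KO vehicle and 2.071 to 2.074 in WT vehicle. Myc and Igf2bp3 had the same order of groups, from KO ENU through KO vehicle and WT ENU to WT vehicle. That order was not particular to proliferation markers. The sums of macrophage, neutrophil and myeloid progenitor, stellate, and T and NK cell genes had it too.

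Of the other marker lists, 8 of 9 measured cholangiocyte and progenitor genes rose, 9 of 10 neutrophil and myeloid progenitor genes, 6 of 9 macrophage genes and 4 of 9 stellate genes. Over all measured genes 17.1% rose and 15.4% fell. In each WT group 2 of the 10 neutrophil and myeloid progenitor genes were dim on both arrays, against 0 in each KO group. Of the 11 cholangiocyte and progenitor genes on the array, 4 were dim on both WT vehicle arrays and 2 in each other group. A gene dim in both WT groups could be called only by being higher in KO. The cholangiocyte and progenitor sum was 64.1 to 64.3 in KO ENU, 9.14 to 9.26 in WT ENU, 65.1 to 66.4 in KO vehicle and 6.58 to 6.71 in WT vehicle, with Cftr not above background in any group. For neutrophil and myeloid progenitor genes it was 51.7 to 52.4 in KO ENU, 7.37 to 7.51 in WT ENU, 37.5 to 38.1 in KO vehicle and 4.89 to 4.90 in WT vehicle. Macrophage genes summed to 243 to 245 in KO ENU, 73.4 to 74.0 in WT ENU, 144.9 to 145.3 in KO vehicle and 49.9 to 50.5 in WT vehicle, and stellate genes to 67.4 to 67.6, 23.4 to 23.5, 61.1 to 62.0 and 14.5 to 14.7 in the same groups. Among 5 measured B cell genes, a lineage in which Arid3a is active, 1 rose, and Pax5 and Blk were not above background. In T and NK cells 4 of 8 genes rose and 2 fell, 1 of 8 endothelial and 2 of 4 measured erythroid genes fell. The part of these cell types in the differences of the members was not tested.

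The RefSeq table of promoters (GRCm38.p6, 250 bases before to 50 after a gene's start) holds Igf2bp3, Lin28b, Hmga1, Hmga2, Igf2bp2 and Mycn, with Hmga1 entered at 2 starts. It was searched for the E-box that MYC and its partners bind, CACGTG, which reads the same on both strands. The E-box was in 2 of the 6 genes' promoters, Igf2bp3 and Lin28b, and in 7.15% of all 32851 promoters of that length. The GC box GGGCGG, on either strand, was in 4 of the 6 (Hmga1, Hmga2, Igf2bp2 and Mycn) and in 35.7% of all promoters, and the TATA motif TATAAA in none of them and 13.6% of all. The 250 bases before the start of Igf2bp3, the one gene that rose and holds an E-box, are chr6:49214955-49215204 on the minus strand, shown 5′ to 3′ with the E-box in capitals.
Igf2bp3 promoter: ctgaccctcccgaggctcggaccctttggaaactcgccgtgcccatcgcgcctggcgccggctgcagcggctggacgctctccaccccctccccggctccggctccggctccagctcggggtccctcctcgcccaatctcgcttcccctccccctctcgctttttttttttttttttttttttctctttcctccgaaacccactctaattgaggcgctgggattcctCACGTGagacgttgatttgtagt
The match begins 23 bases before the start, and another lies within the 50 bases after it. A match is a description of the sequence and does not show that MYC binds there. Arid3a, Igf2bp1 and Myc have no entry in the table.

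The genes whose profile over the 8 arrays lay nearest to each member's were found among genes whose group means span at least 1 log2 unit, by the root mean squared difference of mean-centred log2 values. Nearest to Igf2bp3 were Rps6kl1 (0.0883), Spag5 (0.169), a mitotic spindle gene, and Uhrf1 (0.242), a gene of DNA replication and methylation. Nearest to Myc were Sptlc2 (0.0403), Atpif1 (0.0520) and Aoah (0.0531), and nearest to Arid3a the cDNA AK052617 (0.176), Cfap69 (0.218) and Zim1 (0.219). Igf2bp1 was matched on a profile whose WT values were all substituted, so the WT part of that match describes no measured level. The neighbours of Igf2bp1 were Cacna1b (0.157), E330037M01Rik (0.171) and Cfap44 (0.209). For Hmga2 they were Camk2n2 (0.0865), Dlgap4 (0.0878) and Gabbr1 (0.0923), for Hmga1 Dusp7 (0.186), Mideas (0.187) and AK035801 (0.193), for Igf2bp2 AK041146 (0.126), S57425 (0.131) and Adcy4 (0.133), and for Mycn X12807 (0.0991), Arhgap6 (0.109) and Mcu (0.116). These distances describe 4 RNA samples on 8 arrays.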

How the data were processed

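The deposited values are scanner intensity values, made per the file headers with Agilent's Feature Extraction 10.7.1.1; version 10.5.1 stands in the submitters' processing notes. Its background-corrected signal was used, put on a log2 scale here and centred on the 75th percentile of each array, and the deposited raw and local background intensity served for normexp (offset 50). Control spots and outliers were dropped, and repeated spots of 1 probe were averaged. To be tested, a probe needed both arrays of some group well above background. A gene was represented by its brightest probe. A RefSeq table (GRCm38.p6) updated the probe names, 22951 through accessions, 6659 through symbols and 3109 through synonyms, and left 8455 as they were. Coordinates are those printed in the files (mm7).

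The members and gene lists were chosen with earlier results of these data known. Every member probe is reported, and of each list up to 4 genes that passed with the largest KO effect, and all let-7 regulators and relatives. Some list genes are not reported here by name. Where both arrays of a group were dim, the fold is a bound against the higher of the array's lowest signal above background and the probe's own, under this background correction. With 1 to 3 probes a gene, no level of one probe was set against another's. The p-values of the fit over 4 RNA samples are set against the difference between the genotypes' ENU responses, moderated over all probes. They measure no spread between samples of a group, and the number of arrays limits the precision. Same-lettered arrays of different groups correlated at -0.03 to 0.10 in their deviations from group means, so the letters do not pair them. R 4.3.3 and limma 3.58.1 were used. Alternatives were normexp, quantile normalization, median centring, other filters, all probes of a gene averaged, 8 arrays with and without a replicate block, and leaving out each array.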

Additional observations from a re-analysis of the deposited data

Results flagged for a closer look

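Igf2bp2 and Mycn were singled out because both arrays of a group moved one way under one condition and both moved the other way under the other. Igf2bp2 (A_51_P315682) differed between KO and WT by -0.72 log2 after ENU and by 0.62 on vehicle, and its ENU minus vehicle difference was -0.97 in KO and 0.37 in WT. Mycn (A_52_P536494) differed between KO and WT by -0.88 after ENU and by 0.44 on vehicle. Neither difference between conditions was tested, since each group is 1 RNA sample. Opposite KO differences on every array were seen for 1940 of the 18137 measured genes and opposite ENU differences for 3080 of them. With normexp the vehicle differences of both genes were -0.01, so the opposite direction was lost there.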

How the results depend on the processing

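The 4 members that rose in KO did so under every alternative with 4 RNA samples in which their brightest probe was tested, and leaving out any 1 array kept the count at 4. For Igf2bp1, with substituted WT values, a higher level in KO was the only outcome open, so its repeated call adds no support. Its effect was 0.77 with normexp, against 3.38. With 8 arrays and 4 group means, 1 member fell in KO and 3 rose and 4 fell with ENU; with the replicate block 3 rose and 4 fell with ENU and 6 rose in KO. In that fit the residual is array noise. Normexp put 3 members past 2-fold in KO on vehicle in place of 5, 1 higher with ENU in WT in place of 2, and 0 with a lower ENU difference in KO than in WT in place of 3. Testing only probes above background on all 8 arrays, which leaves out Igf2bp1 and Igf2bp3 and lets Hmga2 pass, gave 3 higher in KO on vehicle, 2 after ENU and 1 with ENU in WT. One member was 2-fold lower in KO after ENU with quantile normalization and 1 with median centring, and 1 was lower with ENU in KO with quantile normalization and 1 with all probes averaged. Over the 8 fits that leave out 1 array, members past 2-fold in KO on vehicle numbered 4 to 5, those lower with ENU 0 to 1 in WT and 0 to 1 in KO. Direction reversed with normexp for Hmga2 A_51_P288315 (KO effect -0.16, on vehicle -0.11), Hmga2 A_52_P373357 (-0.027), the ENU contrast of Igf2bp3 A_52_P271232 (0.26) and Dgcr8 (-0.0023). It reversed with quantile normalization for Trim25 (0.20), with median centring for Dgcr8 (-0.082), Tarbp2 (-0.18), Ago3 (-0.094) and Arid3b (-0.18), and with all probes averaged for Trim25 (0.29) and Ago4 (0.047). It also reversed for Igf2bp2 without WT ENU array a (0.015; range -0.12 to 0.015 over the arrays left out), and for Tarbp2 without WT ENU array b (-0.00035) and without KO vehicle array a (-0.0026; range -0.0026 to 0.042). The cause was not tested. Of all genes called in KO, 52.6% were higher, against 36.1% with normexp, 59.6% with quantile normalization and 36.2% with median centring, which moved the median KO difference on vehicle to -0.37, against -0.14. Dim signals limit Igf2bp1, Hmga2 and Lin28b.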
